A study of Homo sapiens with 4 samples.

Results

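Helicobacter pylori, a bacterium of the human stomach, attaches to gastric epithelial cells and delivers its effectors through a small set of host surface proteins. Transcripts of 10 genes for such receptors were followed in AGS cells: CEACAM1, CEACAM5, CEACAM6, ITGA5, ITGB1, ITGAV, ITGB5, ITGB6, CD74 and PTPRZ1. Every probe set that the platform annotation assigned to exactly 1 of these symbols was taken, whatever its values. This gave 26 of the 54613 probe sets tested, and they covered 9 of the 10 genes. The 4 probe sets that name ITGB6 carry a second gene symbol, so ITGB6 was not analysed here.

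AGS is an established human gastric adenocarcinoma line. In the treated group (LPS, 2 arrays) the culture medium was replaced by medium with 10 µg/ml H. pylori lipopolysaccharide, the outer-membrane glycolipid of the bacterium. In the control group (untreated, 2 arrays) it was replaced by fresh medium alone. Both groups grew in F-12 Ham medium with foetal calf serum and antibiotics, and RNA was taken after 8 h. The preparation held purified glycolipid without live bacteria, and AGS is 1 cell line. The series speaks of independent experiments, without saying which arrays belong to which, so the p-values measure the spread between these arrays.

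As background, the CEACAM proteins are glycosylated cell-surface adhesion molecules of the immunoglobulin superfamily, and the H. pylori outer-membrane adhesin HopQ binds several of the human ones. Integrins are heterodimers of an alpha and a beta chain that tie the cytoskeleton to the extracellular matrix. CagL, a surface protein of the bacterium's type IV secretion system, is known to engage them while the effector CagA is passed into the cell. CD74, the invariant chain of MHC class II, has been described as a surface receptor for the bacterial urease. PTPRZ1, a receptor-type tyrosine phosphatase best known from the nervous system, is a receptor for the vacuolating toxin VacA. None of these is the signalling receptor of lipopolysaccharide itself, and the comparison asks whether exposure to the glycolipid alone goes with altered transcript levels of the receptors.

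All levels are the deposited log2 expression values, on which 1 unit is a doubling. No detection calls were used here. As a yardstick for background, the 135 probe sets of 102 olfactory receptor genes, which a gastric epithelial line is not known to express, were taken on each array. Their 95th percentile was 7.21 and 7.28 on the LPS arrays and 7.19 and 7.22 on the untreated arrays. Probe sets differ in affinity, so this marks a zone in which signal may be background, and levels of different genes are not ranked against each other. Of the 26 receptor probe sets, 15 lay above the yardstick on all 4 arrays, 10 on none and 1 on a single array. Over all probe sets, 33.1% lay above it on every array.

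The labelled cell type was checked against marker genes, each taken by its brightest probe set. All 7 epithelial markers, among them KRT18 and EPCAM, lay above the yardstick on all arrays, as did 48.6% of all genes taken this way. None of the 6 measured leukocyte markers did. Of the other markers, 1 of 8 fibroblast and endothelial genes (COL1A1) and 1 of 6 neural and glial genes (MBP) did.

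**Figure D1:**
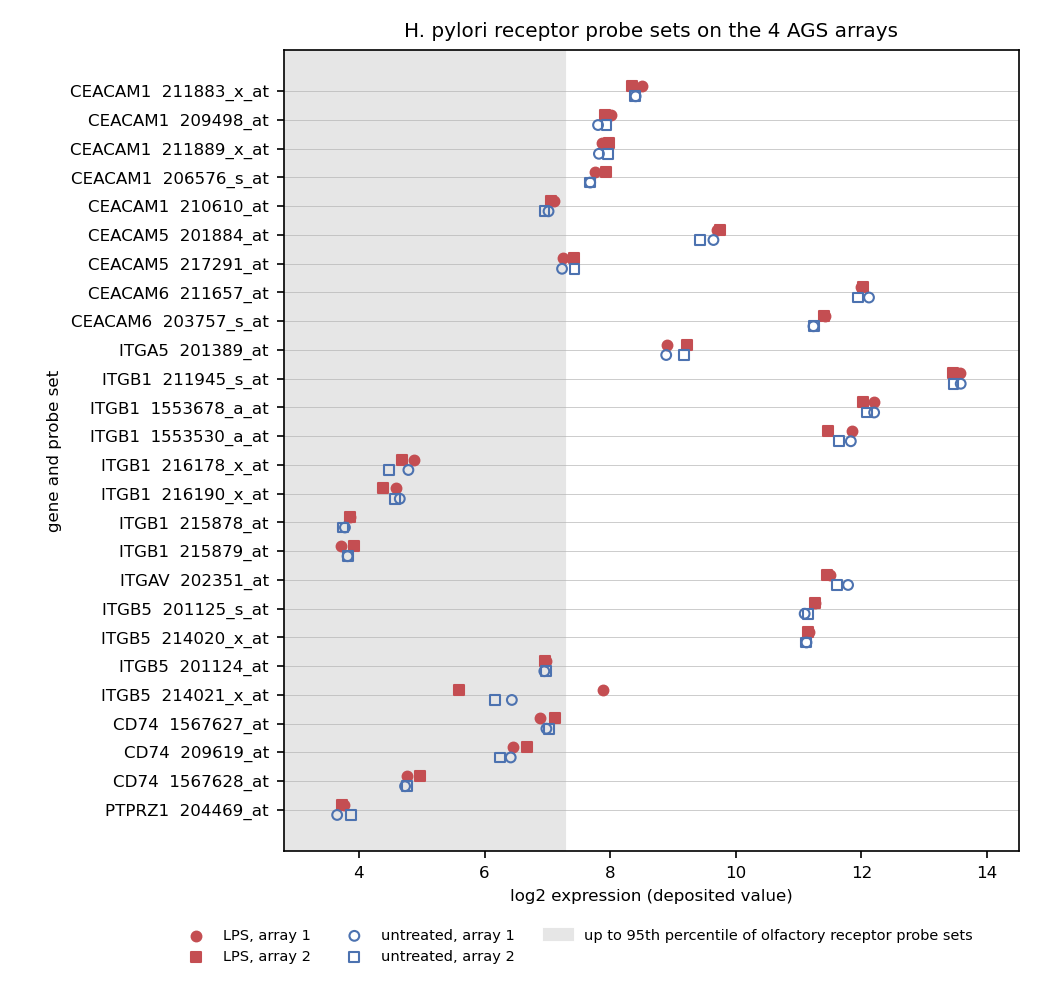
Deposited log2 expression (horizontal axis) of the 26 receptor probe sets (vertical axis), with filled red symbols for LPS arrays, open blue symbols for untreated arrays, circles for arrays numbered 1 and squares for arrays numbered 2. The grey zone ends at 7.28, the highest of the 4 olfactory receptor yardsticks, and all CD74 and PTPRZ1 points lie inside it. The counts in the text use each array's own yardstick. CEACAM5 217291_at is therefore counted as above it, although 7.26 (LPS array 1) and 7.23 (untreated array 1) fall inside the zone.

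No receptor probe set differed between LPS and untreated cells beyond the threshold. With limma's moderated test over all 54613 probe sets, 0 were called higher (0.0%) and 0 lower (0.0%) at an adjusted p of 0.05, and the adjusted p was 1 for each of the 26 receptor probe sets. At an unadjusted p under 0.05 there were 0 receptor probe sets, against 1419 of all probe sets (2.6%). The smallest unadjusted p of the receptors was 0.0564, for ITGAV. In RNA of whole cultures, fewer cells that express a gene and less of its RNA per cell cannot be told apart. The median difference of LPS minus untreated was 0.03 on the log2 scale over the 26 receptor probe sets and 0.02 over all probe sets.

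Taken 1 probe set at a time, the 95% confidence intervals limit what could have been missed. They treat the 4 arrays as independent and do not hold jointly for all 26 probe sets. For 25 of the 26 receptor probe sets the whole interval of the fold lay within 1.5-fold in either direction, and over all probe sets this held for 90.5%. Over the 15 receptor probe sets above the yardstick the intervals reached from 0.732-fold to 1.39-fold. For the others the interval bounds the signal of the probe set and not a change of a transcript that may be below detection.

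Of the 26 receptor probe sets, 9 had both LPS arrays above both untreated arrays, where 17.6% of all probe sets did, and 1 had both below, where 11.9% of all did. The gaps between the groups were narrow in these 10, from 0.001 to 0.159 on the log2 scale. An exact permutation test of 1 probe set has 0.33 as its smallest p in this design.

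**Figure D2:**
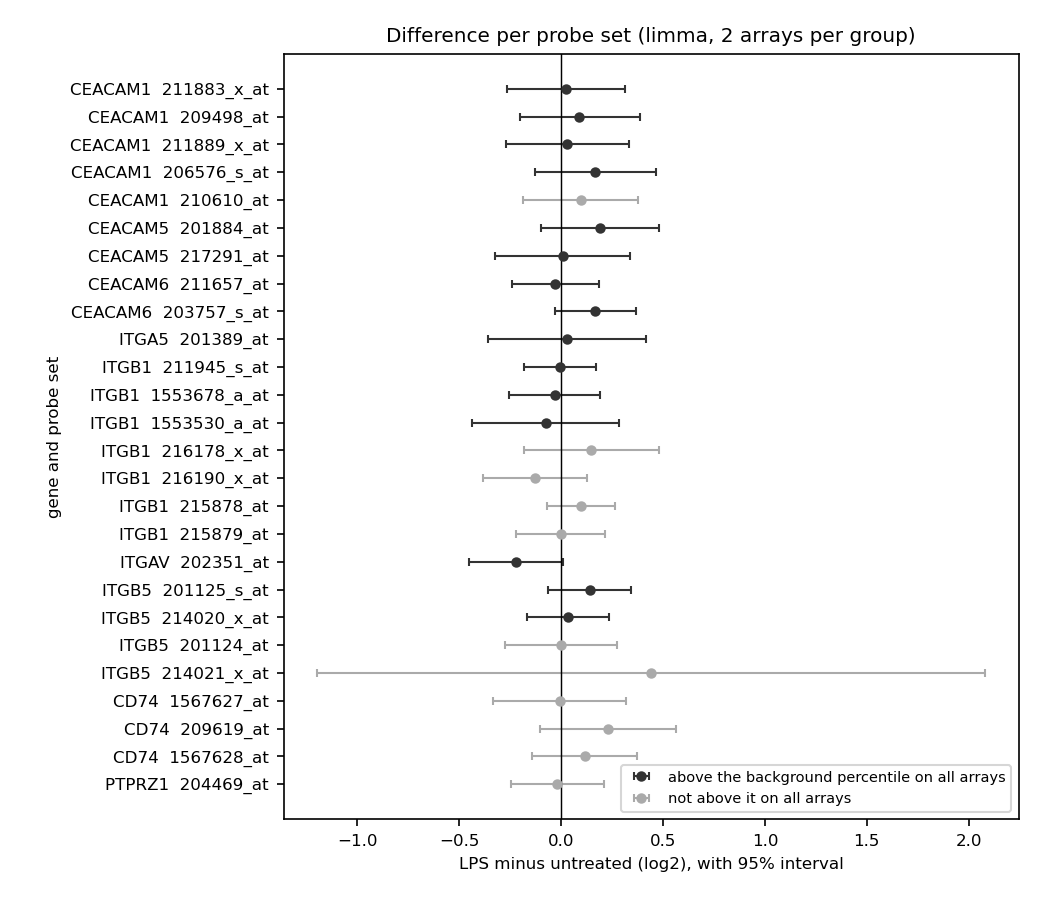
LPS minus untreated on the log2 scale (horizontal axis) for each receptor probe set (vertical axis), with the 95% interval from limma as the bar. Black points lay above the olfactory receptor yardstick on all 4 arrays, grey points did not, and every interval includes 0.

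CEACAM6, a glycosylphosphatidylinositol-anchored adhesion molecule, gave strong signal on both of its probe sets, between percentiles 95.4 and 97.8 of the probe sets on an array. Its probe set 203757_s_at stood at 11.41 and 11.41 in LPS cells, against 11.24 and 11.25 in untreated cells. The arrays of each group nearly coincided and the groups did not overlap. The difference of 0.17 ± 0.08 (SE) on the log2 scale, or 1.12-fold with a 95% interval of 0.98 to 1.29, did not pass (limma, unadjusted p = 0.0824, adjusted p = 1). The other CEACAM6 probe set, 211657_at, was at 11.99 and 12.02 in LPS cells, against 12.12 and 11.95 in untreated cells. There both LPS arrays fell between the untreated ones, with a difference of -0.03, so the probe sets of the gene did not share a direction.

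CEACAM5, the carcinoembryonic antigen used as a tumour marker, was measured by 201884_at at 9.69 and 9.76 in LPS cells, against 9.64 and 9.43 in untreated cells. Both LPS arrays were higher, but untreated array 1 lay within 0.05 of the lower LPS array. The difference was 0.19 ± 0.12 (SE), or 1.14-fold with an interval of 0.933 to 1.39 (limma, unadjusted p = 0.161, adjusted p = 1). The arrays numbered 2 differed by 0.33 and those numbered 1 by 0.05, although the labels do not state that arrays are paired by number. Without untreated replicate 2 the difference was 0.081, and without untreated replicate 1 it was 0.298. The second probe set, 217291_at, was just above the yardstick, at 7.26 and 7.42 in LPS cells and at 7.23 and 7.43 in untreated cells, and its difference was 0.01.

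CEACAM1, a transmembrane member with inhibitory signalling motifs in its longer isoforms, was represented by 5 probe sets, of which 4 lay above the yardstick. All 5 differences were above 0, from 0.02 to 0.17 on the log2 scale. The largest belonged to 206576_s_at, with 7.77 and 7.93 in LPS cells, against 7.68 and 7.68 in untreated cells. The untreated arrays were almost identical and both LPS arrays lay above them, by a difference of 0.17 ± 0.12 (SE) that did not pass (limma, unadjusted p = 0.217, adjusted p = 1). Leaving out LPS replicate 2 gave 0.085, and leaving out LPS replicate 1 gave 0.25. On 209498_at the values were 8.01 and 7.92 in LPS cells, against 7.81 and 7.94 in untreated cells, and the groups overlapped. The brightest, 211883_x_at, had 8.51 and 8.35 in LPS cells, against 8.40 and 8.40 in untreated cells, and the untreated arrays lay between the LPS arrays. The suffixes _x_at and _s_at mark probe sets whose probes may match several transcripts, so part of such a signal may come from another of the closely related CEACAM genes.

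Over the 3 CEACAM genes, 8 of 9 probe sets had a difference above 0, where 55.6% of all probe sets did, and the median was 0.09. These 9 are not independent, since they measure 3 related genes on the same arrays. Relatives outside the receptor set showed no common direction: of the 6 other CEACAM genes with a probe set of their own, each taken by its brightest, 3 were above 0 and 3 below, and none was without overlap. Of these 6, only CEACAM19 lay above the yardstick on all arrays. CEACAM7 differed by 0.11 and CEACAM21 by -0.05 (limma, adjusted p = 1 for each), both in the background zone. Their other probe sets had the opposite sign, with -0.03 and -0.02 for CEACAM7 and 0.12 for CEACAM21.

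ITGB1 encodes the beta chain shared by many matrix-binding integrins, including the fibronectin receptor that it forms with the ITGA5 product. Its brightest probe set, 211945_s_at, stood at 13.57 and 13.46 in LPS cells, against 13.58 and 13.47 in untreated cells, between percentiles 99.5 and 99.6 of an array. Same-numbered arrays were within 0.01 of each other, and the groups overlapped fully. The fold was 0.997 with an interval of 0.883 to 1.13 (limma, adjusted p = 1).

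The next brightest ITGB1 probe sets had differences of -0.03 (1553678_a_at) and -0.08 (1553530_a_at). On 1553530_a_at the values were 11.86 and 11.46 in LPS cells, against 11.83 and 11.64 in untreated cells, so that the spread within each group exceeded the difference between them. The other 4 ITGB1 probe sets (216178_x_at, 216190_x_at, 215878_at and 215879_at) lay at 3.72 to 4.88, deep in the background zone, although they carry the same gene symbol. Their differences, from -0.13 to 0.15, are not read as changes of ITGB1.

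ITGA5, the alpha chain of that fibronectin receptor, was measured by 201389_at at 8.91 and 9.22 in LPS cells, against 8.89 and 9.17 in untreated cells. The arrays numbered 2 were higher than those numbered 1 in both groups, by 0.31 in LPS cells and by 0.28 in untreated cells. LPS minus untreated was 0.03 ± 0.16 (SE), or 1.02-fold with an interval of 0.781 to 1.34 (limma, unadjusted p = 0.855, adjusted p = 1).

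ITGAV, the alpha chain that pairs with the ITGB5 and ITGB6 products among others, had the largest difference of the receptor probe sets above the yardstick. Its single probe set, 202351_at, was at 11.50 and 11.45 in LPS cells, against 11.79 and 11.61 in untreated cells. Both LPS arrays lay below both untreated arrays, with -0.28 for LPS array 1 minus untreated array 1 and -0.16 for LPS array 2 minus untreated array 2. The mean difference of -0.22 ± 0.09 (SE), or 0.858-fold with an interval of 0.732 to 1.01, did not pass (limma, unadjusted p = 0.0564, adjusted p = 1). It ran from -0.31 to -0.13 when 1 array was left out.

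ITGB5, a beta chain of vitronectin-binding integrins, had 2 bright and 2 dim probe sets. On 201125_s_at the values were 11.26 and 11.26 in LPS cells, against 11.10 and 11.14 in untreated cells, and the groups did not overlap. The difference was 0.14 ± 0.08 (SE), or 1.10-fold with an interval of 0.957 to 1.27 (limma, unadjusted p = 0.143, adjusted p = 1). The second bright probe set, 214020_x_at, had 11.16 and 11.15 in LPS cells, against 11.12 and 11.11 in untreated cells, a difference of 0.03. Both bright probe sets were thus slightly higher without passing, while ITGAV, the partner chain, lay on the other side of 0.

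A dim ITGB5 probe set, 214021_x_at, read 7.89 and 5.59 on LPS arrays 1 and 2, against 6.44 and 6.16 on the untreated arrays. Its LPS arrays differed by 2.30 on the log2 scale, a gap that only 2 of the 54613 probe sets reached, this one included. The difference of 0.44 had an interval of -1.20 to 2.08, and leaving out LPS replicate 1 turned it to -0.71, while leaving out LPS replicate 2 gave 1.59. The other ITGB5 probe sets showed no such gap between the same arrays: 201124_at was at 6.97 and 6.96 in LPS cells and at 6.95 and 6.98 in untreated cells. The reading of 214021_x_at is therefore given as a value of that probe set and not of the gene.

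**Figure D3:**
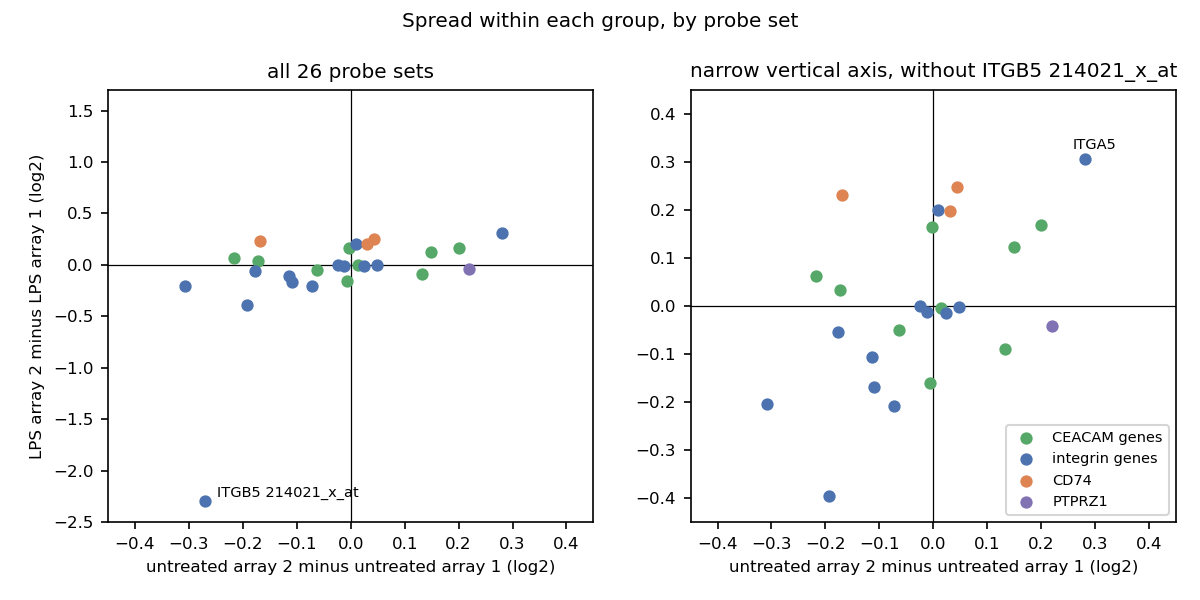
Difference between the arrays of a group for each receptor probe set, with untreated array 2 minus untreated array 1 on the horizontal axis and LPS array 2 minus LPS array 1 on the vertical axis, both in log2 units. The left panel holds all 26 probe sets with ITGB5 214021_x_at at -2.30 on the vertical axis, and the right panel leaves that point out, with ITGA5 at the upper right (0.28 and 0.31).

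The spread between arrays of a group was often larger than the difference between groups. For 17 of the 26 probe sets the gap between the LPS arrays was larger than the difference between the group means, and for 7 the group difference exceeded the gaps within both groups. Those 7 were 206576_s_at and 210610_at of CEACAM1, 203757_s_at of CEACAM6, 215878_at of ITGB1, 202351_at of ITGAV, and 201125_s_at and 214020_x_at of ITGB5. Neither count was made over all probe sets, so neither is read as a trait of the receptors. The median gap between the LPS arrays was 0.141 for receptor probe sets and 0.143 over all. The median absolute difference between groups was 0.083 and 0.08. In 10 receptor probe sets the arrays numbered 2 were below those numbered 1 in both groups, and in 6 they were above in both. Over all 54613 probe sets, 15320 were below in both and 19932 above in both. Of the 10, 8 were among the 13 integrin probe sets, which are not independent: 7 measure ITGB1 and 4 measure ITGB5. The labels do not state whether the replicate number stands for a shared experiment. With the number as a block, the adjusted p was 0.685 or more for each of the 26 probe sets (limma).

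CD74 gave no signal above the yardstick on any of its 3 probe sets. The probe set 209619_at read 6.45 and 6.68 in LPS cells, against 6.42 and 6.25 in untreated cells. The LPS arrays were above the untreated ones by a gap of 0.03, and the difference of 0.23 ± 0.14 (SE) did not pass (limma, unadjusted p = 0.144, adjusted p = 1). It ran from 0.115 to 0.347 when 1 array was left out. LPS array 2 exceeded untreated array 2 by 0.43, and LPS array 1 exceeded untreated array 1 by 0.03. The brightest, 1567627_at, was at 6.88 and 7.12 in LPS cells, against 6.99 and 7.03 in untreated cells, with a difference of -0.01. On 1567628_at, at 4.73 to 4.97 on all arrays, the difference was 0.12.

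Genes that work with CD74 were taken by their brightest probe sets: 13 were measured, 6 with a difference above 0 and 7 below, none at an unadjusted p under 0.05. Over all genes taken this way, 426 of 19775 were at that level (2.15%). The list's median was -0.004, against 0.017 over all genes. Only 3 of the 13 lay above the yardstick on all arrays: MIF, the cytokine that binds CD74, the transcription factor gene RFX5, and SPPL2A, an intramembrane protease that cleaves CD74. MIF, named outside the selection rule as the ligand, was at 13.63 and 13.62 in LPS cells, against 13.61 and 13.69 in untreated cells. MIF thus lay above the yardstick on every array and CD74 on none. SPPL2A differed by -0.07 and HLA-DRB1, an MHC class II beta chain in the background zone, by -0.16 (limma, adjusted p = 1 for each). CIITA, the master activator of MHC class II genes, and the signalling partner genes CXCR4 and CXCR2, all named outside the selection rule, did not reach the yardstick on any array.

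PTPRZ1 was at the bottom of the scale: its single probe set, 204469_at, read 3.77 and 3.73 in LPS cells, against 3.65 and 3.87 in untreated cells. These lie between percentiles 1.52 and 4.59 of the probe sets on an array. The LPS arrays fell between the untreated arrays, and the difference was -0.02 ± 0.09 (SE) (limma, unadjusted p = 0.854, adjusted p = 1). With 1 probe set at this level, neither presence nor change of the transcript can be read.

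Among 8 measured ligands and partners of PTPRZ1, 7 had a difference above 0 and 1 below, with a median of 0.05, and none was at an unadjusted p under 0.05. Over all genes by their brightest probe sets, 56.5% were above 0. Between the arrays numbered 1 the list's median was -0.055, and between those numbered 2 it was 0.171. Over all genes these medians were 0.005 and 0.024. Only 1 of the 8 genes had the same sign in both, where 11069 of all 19775 genes did. The labels do not state that arrays are paired by number. Above the yardstick on all arrays were MDK, which encodes the ligand midkine, and GIT1, a scaffold protein gene known as a substrate of the phosphatase. GIT1 was at 8.72 and 8.85 in LPS cells, against 8.50 and 8.70 in untreated cells, a difference of 0.18 ± 0.13 (SE; limma, adjusted p = 1). CNTN1, a neural adhesion molecule gene in the background zone, differed by 0.15, and its 3 other probe sets by -0.10 to -0.01.

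The other integrin subunits were all measured, 21 genes by their brightest probe sets, and 9 lay above the yardstick on all arrays. Of the 21, 12 had a difference above 0 and 9 below, with a median of 0.04, and 10 were without overlap (6 higher and 4 lower), where 17.9% of all genes were higher and 11.7% lower in this way. ITGB8, another partner chain of ITGAV, was at 7.98 and 7.79 in LPS cells, against 8.44 and 8.02 in untreated cells. Both LPS arrays were below both untreated arrays, but the difference of -0.34 ± 0.17 (SE) did not pass (limma, unadjusted p = 0.0925, adjusted p = 1), and other probe sets of the gene differed by -0.03 to 0.01. ITGA4, an alpha chain known mainly from leukocytes, differed by -0.36 ± 0.11 (SE) (limma, unadjusted p = 0.0171, adjusted p = 1) at 5.24 to 5.69, inside the background zone. On its 3 other probe sets the differences ran from -0.04 to 0.19.

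Ligands and cytoplasmic partners of the integrins lay on both sides of 0. Of the 9 measured ligand and matrix genes, 4 were above 0 and 5 below, with a median of -0.01. CCN2 and CCN1, which encode matricellular proteins that bind integrins, had differences of -0.29 ± 0.13 and -0.19 ± 0.11 (SE; limma, adjusted p = 1 for each). Of 17 genes of the adhesion machinery, 10 were above 0 and 7 below, with a median of 0.03, and 14 lay above the yardstick. FERMT1, the epithelial kindlin that binds integrin beta tails, was at 10.86 and 10.70 in LPS cells, against 10.57 and 10.49 in untreated cells. The groups did not overlap, and the difference of 0.25 ± 0.10 (SE) had an unadjusted p of 0.0467 and an adjusted p of 1 (limma), with -0.04 to 0.19 on its other probe sets. LIMS1, the adaptor PINCH, differed by 0.12 in the background zone.

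**Figure D4:**
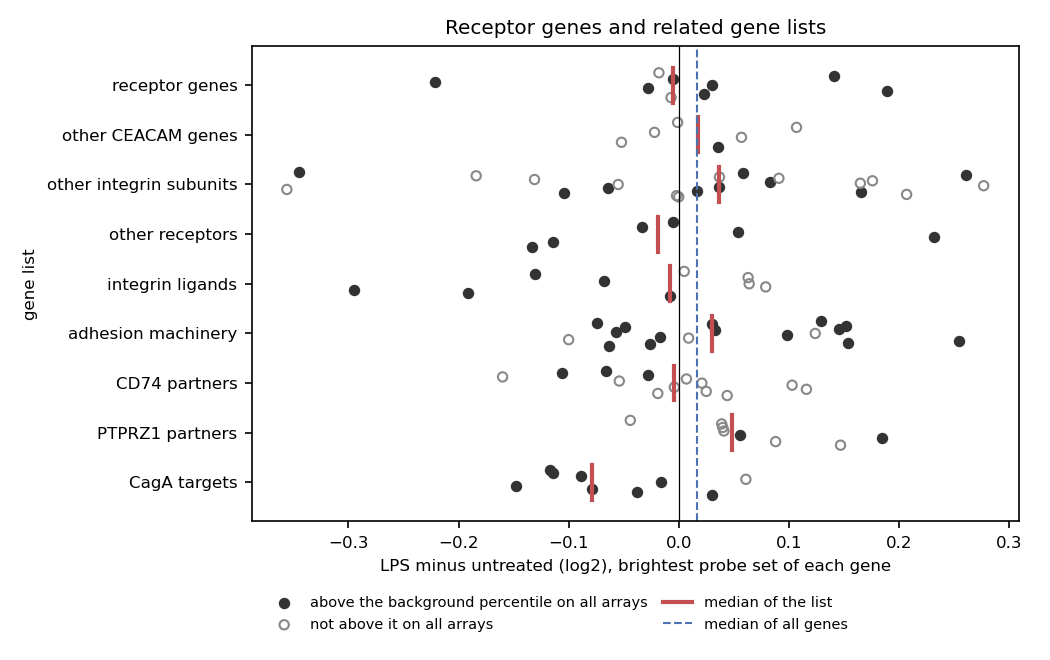
LPS minus untreated on the log2 scale (horizontal axis) for the brightest probe set of each gene, by gene list (vertical axis). Filled points lay above the olfactory receptor yardstick on all arrays and open points did not, red bars are the medians of the 9 lists drawn, which leave out the cell type markers, from -0.079 (CagA targets) to 0.048 (PTPRZ1 partners), and the dashed line is the median of all genes at 0.017.

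Further surface proteins that have been linked with H. pylori, namely CD55, LRP1, EGFR, MET, CD44 and PTPRA, all lay above the yardstick on every array. Of these 6, 2 had a difference above 0 and 4 below. CD55, the complement decay-accelerating factor, was at 13.91 and 14.07 in LPS cells, against 14.14 and 14.08 in untreated cells, a difference of -0.11 ± 0.07 (SE; limma, adjusted p = 1). EGFR, the epidermal growth factor receptor, was at 11.73 and 11.38 in LPS cells, against 11.39 and 11.26 in untreated cells. Its groups overlapped, with a difference of 0.23 ± 0.13 (SE) (limma, adjusted p = 1). The 8 other EGFR probe sets differed by -0.09 to 0.17.

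Inside the cell, 9 genes for proteins that CagA is known to bind or act on were measured, and 8 lay above the yardstick on all arrays. Of the 9, 7 were below 0 and 2 above, with a median of -0.08, and none was at an unadjusted p under 0.05. Over all genes by their brightest probe sets, 8607 of 19775 were below 0. PTPN11, which encodes the phosphatase SHP2, was at 12.53 and 12.53 in LPS cells, against 12.70 and 12.58 in untreated cells, a difference of -0.11 ± 0.07 (SE). The docking protein gene GAB1 differed by -0.15 ± 0.11 (SE), and its other probe sets by -0.35 to 0.12 (limma, adjusted p = 1 for both genes).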

How the data were processed

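AGS cells were profiled on 4 single-colour Affymetrix arrays, 2 of LPS-treated and 2 of untreated cells. The authors deposited log2 expression values, 1 per probe set. MAS5 and RMA are the tools in the submitters' processing notes, with settings and versions not given in the sources used here. Which of these tools gave the deposited values was not tested. If it was RMA, differences of dim probe sets are compressed.

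Per probe set, symbols came from a platform annotation, checked by gene number against a current table: of 54675 probe sets, 41097 had 1 symbol, 1801 several and 11777 none. The 62 controls were left out. LPS minus untreated was fitted by limma (version 3.58.1, R 4.3.3) with a moderated variance that follows intensity and no covariates. P-values are two-sided and were adjusted by Benjamini-Hochberg over the 54613 tested probe sets, with a threshold of 0.05. The fit was run on simulated arrays with known changes. These were drawn independently, so the run does not test the p-values where same-numbered arrays share deviations. Values per gene list use each gene's brightest probe set (19775 genes) from that fit. From each of the 8 lists of related genes, the 2 with the largest moderated statistic are named. Other list genes in the text, cell type markers included, were chosen after their values were seen. The receptor genes and lists were chosen with earlier results of these data known. Alternatives were quantile normalization, a level filter, no trend, a replicate block, other probe set choices and each array left out. The number of arrays limits the precision. Figures were drawn with matplotlib 3.10.9.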

Additional observations from a re-analysis of the deposited data

How the results depend on the processing

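Under 12 alternatives, 0 probe sets or genes passed the adjusted threshold in either direction, and the smallest adjusted p of a receptor probe set was 0.293 (ITGB5 214021_x_at without LPS replicate 2). The count at an unadjusted p under 0.05, 1419 over all probe sets, was 566 with the filter at the median level, 559 with 1 probe set per gene, 466 with each gene's probe sets averaged, and 406 to 3868 when 1 array was left out (lowest without untreated replicate 1, highest without LPS replicate 1). With the replicate number as a block it was 3579, and the deviations of same-numbered arrays correlated at 0.542 across probe sets; the labels do not say that a number marks a shared experiment. The receptor count at that level, 0, was 2 under the replicate block (limma, ITGAV at an unadjusted p of 0.02 and CEACAM6 203757_s_at at 0.0367, adjusted p = 0.685 for both), 1 with quantile normalization, 1 with 1 probe set per gene, 1 with probe sets averaged (ITGAV in each), and 0 to 1 when 1 array was left out. The direction was the same for 12 of 26 receptor probe sets in the settings that held them (not all hold each probe set), among them ITGAV, CEACAM6 203757_s_at, CEACAM5 201884_at and ITGB5 201125_s_at, and turned in at least 1 for 14. ITGB1 211945_s_at was at 0.018 with quantile normalization and at 0.0 in the mean of the gene's probe sets, where CEACAM6 was at 0.07 and CD74 at 0.113. With 1 array left out, the ranges were -0.056 to 0.103 for 211883_x_at and -0.043 to 0.106 for 211889_x_at of CEACAM1, -0.093 to 0.107 for CEACAM5 217291_at, -0.114 to 0.058 for CEACAM6 211657_at and -0.123 to 0.183 for ITGA5. For ITGB1 they were -0.062 to 0.052 (211945_s_at), -0.116 to 0.052 (1553678_a_at), -0.273 to 0.121 (1553530_a_at), -0.006 to 0.302 (216178_x_at) and -0.102 to 0.097 (215879_at). They were -0.012 to 0.012 for 201124_at and -0.709 to 1.591 for 214021_x_at of ITGB5, -0.131 to 0.116 for CD74 1567627_at and -0.128 to 0.092 for PTPRZ1. The median over receptor probe sets, 0.031, ran from -0.005 (1 probe set per gene) to 0.072. The cause of these changes was not tested. Fewer probe sets entered the fit under the filter and per gene, so those counts have smaller totals. The fits per gene held 19775 genes, against 54613 probe sets in the main fit. Signal in the background zone limits CD74, PTPRZ1 and the dim probe sets of ITGB1 and ITGB5.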
